A study of Homo sapiens with 18 samples.

Results

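The genes described here encode the proteins that license origins of DNA replication and build the replication fork, and their transcripts were compared between U87MG cells under control conditions and U87MG cells given Erastin at 10 μM for 72 h. The list held 42 genes, named by symbol, and all 42 were found among the 58302 genes of the deposited count table. U87MG is an established human glioblastoma cell line, so the values describe 1 line in culture. Erastin starves cells of cystine by acting on their cystine/glutamate exchanger, and cultures are given it to study ferroptosis, in which oxidized membrane lipids kill the cell. Total RNA was sequenced in 4 libraries, 2 of each condition, which the submitters call biological replicates. Control cells are labelled as kept under normal growth conditions. The labels name no vehicle for the control, and treated and control cells shared the same line, medium and serum.

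A cell copies its genome once in each division cycle. Before S phase the origin recognition complex (ORC) binds origins, and CDC6 and CDT1 bring the ring of MCM2 to MCM7 onto the DNA, a step called licensing that geminin (GMNN) blocks by binding CDT1. At the onset of S phase, CDC45 and the GINS complex join the ring to form the active helicase. Primase and polymerase alpha then start the new strands, the clamp PCNA is placed by the loader RFC, polymerases delta and epsilon extend the strands, and FEN1, DNA2 and LIG1 finish the lagging strand, while RPA covers the exposed single strands. Many of these genes are known targets of E2F transcription factors, and proliferating cells carry more of their transcripts than resting cells do.

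Promoter sequence is shown first, because E2F and NF-Y motifs are the textbook elements of these promoters. RefSeq windows from 250 bases before to 50 bases after an annotated start (GRCh38.p14) were at hand for 35 of the 42 members, in 44 windows since 7 members had more than 1. No window was used for MCM4, MCM5, GINS4, DNA2, POLD3, RPA2 or RPA3. The 6 stretches below lie before an annotated start and outside exons. They are written 5′ to 3′ on the strand of the gene with motif matches in capitals. The first 3 belong to genes that were lower after Erastin and hold an E2F match (TTTGGCGC, TTTCCCGC, TTTGCCGC or TTTCGCGC on either strand). The GMNN stretch comes from the downstream of its windows and lies within the gene. The other GMNN window holds no E2F or NF-Y match. PCNA also holds an E2F match, but its log2 fold change was -0.49 and it was not called. ORC1 and ORC2 are shown as subunits of 1 complex of which ORC1 was called lower and ORC2 was not, and neither stretch holds an E2F match. The pentamers in capitals are NF-Y matches (CCAAT on either strand).
MCM6, chr2:135876509-135876608, minus strand: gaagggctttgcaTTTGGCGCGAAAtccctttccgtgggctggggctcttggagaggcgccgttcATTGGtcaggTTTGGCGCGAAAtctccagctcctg
GMNN, chr6:24775293-24775392, plus strand: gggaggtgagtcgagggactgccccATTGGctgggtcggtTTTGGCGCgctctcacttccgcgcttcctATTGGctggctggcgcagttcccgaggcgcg
POLA1, chrX:24693728-24693827, plus strand: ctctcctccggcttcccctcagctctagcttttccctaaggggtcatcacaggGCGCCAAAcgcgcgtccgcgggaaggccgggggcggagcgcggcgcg
PCNA, chr20:5126627-5126742, minus strand: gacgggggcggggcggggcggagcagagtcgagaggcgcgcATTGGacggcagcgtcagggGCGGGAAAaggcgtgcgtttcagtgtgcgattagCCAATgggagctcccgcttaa
ORC1, chr1:52404460-52404559, minus strand: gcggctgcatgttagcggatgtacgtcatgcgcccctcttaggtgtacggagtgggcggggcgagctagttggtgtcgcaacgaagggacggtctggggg
ORC2, chr2:200963681-200963780, minus strand: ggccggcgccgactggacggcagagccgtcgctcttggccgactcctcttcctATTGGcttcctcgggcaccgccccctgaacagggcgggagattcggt

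The 4 libraries held between 29412656 and 31513519 counts on genes, and a count was found for 23519 to 23990 genes in each. Expression is given as normalized CPM, that is, counts scaled to a common library size with TMM factors between 0.971 and 1.02. Sums over several genes are CPM relative to library totals, without those factors. Groups were compared with edgeR's quasi-likelihood test over 16751 genes, and a gene was called when its log2 fold change was at least 1 in size and its adjusted p under 0.05, the thresholds of the study's methods. With 2 libraries on each side the smallest two-sided p of an exact permutation test is 0.333, and the adjusted p-values of edgeR draw on the variance of all genes together. The median log2 fold change of all tested genes was -0.0026. Transcripts of mesenchymal glioblastoma cells were abundant in every library, whereas the glial markers were low or absent, with AQP4 at 0 in all 4 libraries, SOX2 and S100B at 6 counts or fewer, GFAP between 41 and 81 counts and OLIG2 between 59 and 88 counts. The summed level of the 5 mesenchymal markers moved with the treatment, from 10850 and 11600 CPM in control to 6025 and 6230 after Erastin, with FN1 called lower. The 4 neuronal markers went from 36.0 and 40.6 to 4.83 and 5.53, nearly all of it SNAP25, and the 3 endothelial markers, mainly PECAM1, from 4.51 and 6.14 to 1.67 and 2.10 CPM, with CDH5 at 1 count or fewer. VWF, also endothelial, went the other way, from 4 and 4 to 17 and 32 counts, and was called higher. Immune and epithelial markers did not exceed 0.711 CPM in sum. The part of these markers in the results below was not tested.

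Most transcripts of the replication machinery were lower in Erastin-treated U87MG cells. All 42 members passed the filter on low counts, 28 of them (66.7%) were called lower and 0 were called higher. Of all 16751 tested genes, 1564 (9.34%) were called lower and 1046 (6.24%) higher. Summed over the members, the libraries held 2394 and 2414 CPM in control and 1147 and 1113 in Erastin-treated cells. The median log2 fold change of the members was -1.28, with a range from -2.52 for MCM5 to 0.35 for ORC4. In these bulk samples, fewer cells of a type, such as cells in S phase, and less RNA per cell cannot be told apart.

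By adjusted p alone, 37 members were lower and 1, ORC4, was higher, against 3977 (23.7%) and 3892 (23.2%) of all tested genes. The members that did not pass it were ORC2, ORC5, GINS3 and RPA2. In 38 members both Erastin libraries lay below both control libraries, an order found in 6179 (36.9%) of tested genes. ORC4 and ORC5 had the opposite order, as did 6145 (36.7%) of tested genes, and ORC2 and RPA2 overlapped between the groups. The plot of CPM by library shows this separation gene by gene.

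**Figure D1:**
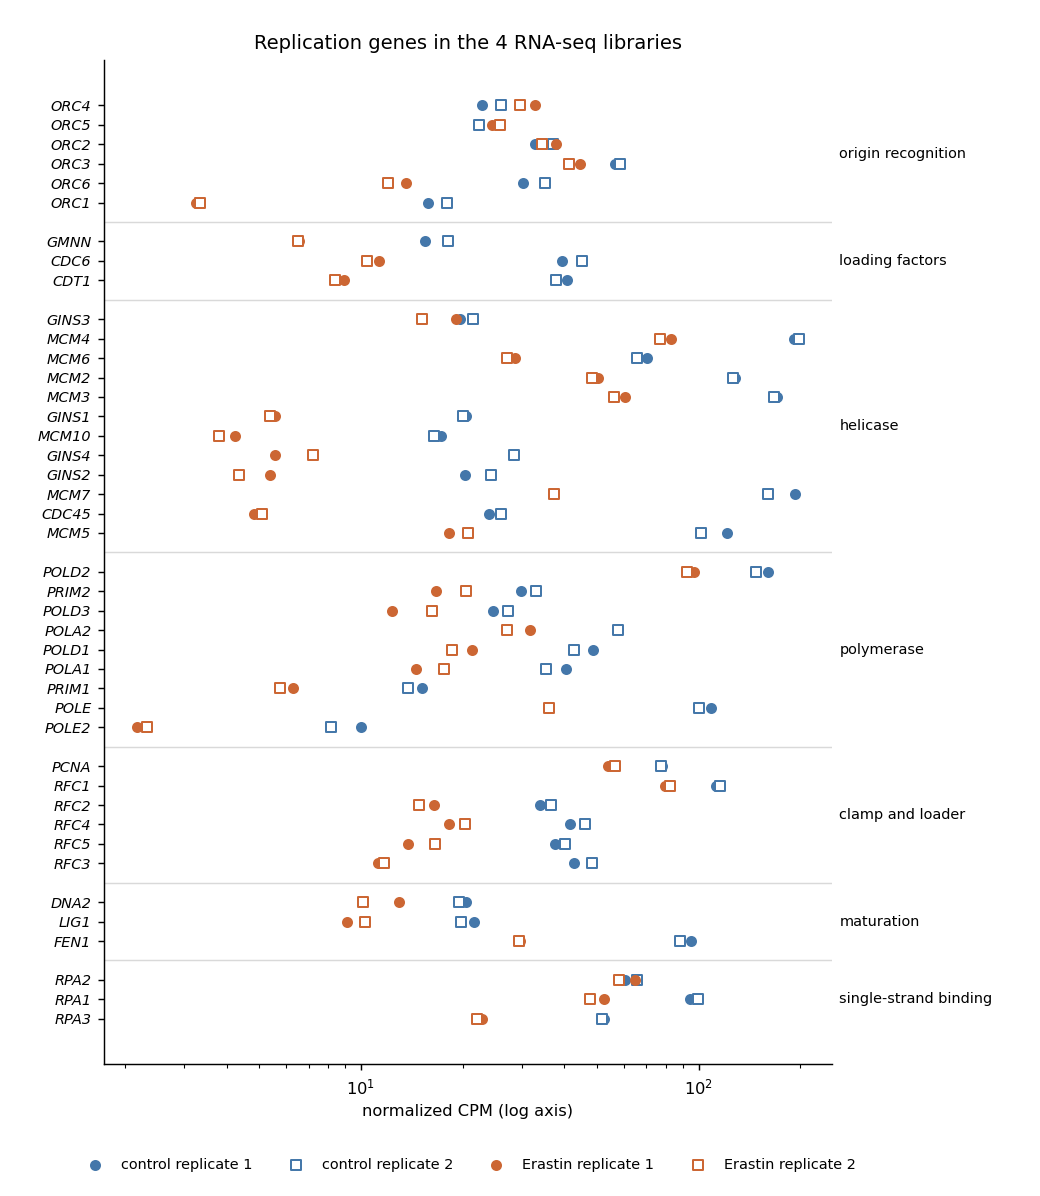
Normalized CPM (log axis) of the 42 replication genes in 2 control libraries (blue) and 2 Erastin libraries (orange), ordered by role and, within a role, by fold change. In 38 genes both orange symbols lie to the left of both blue symbols, ORC4 and ORC5 have the opposite order, and ORC2 and RPA2 overlap.

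The origin recognition complex was split in its response. ORC1 and ORC6 were called lower, ORC3 was lower by adjusted p with a log2 fold change of -0.42, and ORC2, ORC4 and ORC5 lay between 0.05 and 0.35. The median of the 6 members was -0.19. ORC1 (ENSG00000085840, chromosome 1, 52372829 to 52404459), the ATPase subunit that is known to be destroyed after origins have fired, had 15.8 and 18.0 CPM in control and 3.24 and 3.34 CPM in Erastin-treated cells. The control libraries were thus about 5.13-fold above the Erastin libraries, with no overlap. In edgeR the log2 fold change was -2.36 (standard error 0.168, edgeR adjusted p = 4.245e-07).

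ORC2 (ENSG00000115942, chromosome 2, 200908973 to 200963680), a core subunit of the ring on DNA, had 32.8 and 37.1 CPM in control and 37.7 and 34.5 CPM in Erastin-treated cells. The groups overlapped, and the log2 fold change of 0.05 (standard error 0.104, edgeR adjusted p = 0.745) was smaller than its error. ORC4 (ENSG00000115947, chromosome 2, 147930397 to 148021604), a core subunit of the same ATPase family as ORC1, had 22.8 and 26.0 CPM in control and 32.8 and 29.5 CPM after Erastin. Both Erastin libraries of ORC4 were the higher ones. Its log2 fold change was 0.35 (standard error 0.114, edgeR adjusted p = 0.0239), short of the fold threshold. The adjusted p of ORC4 in edgeR was 0.115 without control replicate 1 and 0.183 without Erastin replicate 1, so its place past the threshold on adjusted p rests on those libraries. In addition, 18.8% of the 31-base words of the ORC4 transcript also occur in transcripts of genes elsewhere in the genome. ACVR2A, which overlaps 4.82% of the exon bases of ORC4 on the opposite strand, also had a positive log2 fold change of 0.54 (edgeR adjusted p = 0.0255). Without strand, reads of the shared stretch cannot be told apart. ORC6, which is bound to the core less tightly, had a log2 fold change of -1.35, and ORC5 one of 0.17 (edgeR adjusted p = 0.236).

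The loading factors CDC6 and CDT1 were called lower, as was GMNN, the inhibitor of loading grouped with them. CDT1 (ENSG00000167513, chromosome 16, 88803213 to 88809258), which escorts the MCM ring to ORC, had 40.7 and 37.9 CPM in control and 8.89 and 8.40 CPM in Erastin-treated cells. The difference amounted to a log2 fold change of -2.18 (standard error 0.117, edgeR adjusted p = 3.92e-08). CDC6, the ATPase that works with ORC to open the ring, had a log2 fold change of -1.96. GMNN (ENSG00000112312, chromosome 6, 24774931 to 24786099), the inhibitor of CDT1, had 15.5 and 18.1 CPM in control and 6.55 and 6.49 CPM after Erastin, with no overlap for any of the 3 genes. Its log2 fold change was -1.37 (standard error 0.152, edgeR adjusted p = 1.759e-05).

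The loader CDT1 had a larger fold change than its inhibitor, and the difference between them was described without a test. The ratio of CDT1 to GMNN counts was 2.63 and 2.09 in control and 1.36 and 1.29 in Erastin-treated cells, so both Erastin ratios were below both control ratios. The log2 fold changes differed by -0.82 (standard error 0.192, CDT1 minus GMNN). The ratio of CDC6 to CDT1 was 0.968 and 1.20 in control and 1.27 and 1.24 after Erastin, a difference of 0.22 in log2 fold change with a standard error of 0.167.

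The helicase held the largest share of called members among the groups with more than 3 genes. Of its 12 genes, 11 were called lower and GINS3 was not, and the group median of -1.98 was below that of all members. Summed over the group, the libraries held 976 and 950 CPM in control and 328 and 312 after Erastin. MCM5 (ENSG00000100297, chromosome 22, 35400063 to 35425430), which with MCM2 forms the gate of the ring, had 122 and 102 CPM in control and 18.3 and 20.7 CPM in Erastin-treated cells. The level after treatment was 17.5% of that in control. MCM5 had a log2 fold change of -2.52 (standard error 0.105, edgeR adjusted p = 5.085e-09), the lowest of the 42 members.

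The other ring subunits had log2 fold changes of -2.25 for MCM7, -1.53 for MCM3, -1.37 for MCM2, -1.29 for MCM6 and -1.29 for MCM4. MCM10, which helps to activate the loaded ring, had a log2 fold change of -2.07, and CDC45 one of -2.33. In the GINS complex, GINS2, GINS4 and GINS1 had log2 fold changes of -2.19, -2.14 and -1.89. GINS3 (ENSG00000181938, chromosome 16, 58295080 to 58406144) had 19.6 and 21.4 CPM in control and 19.1 and 15.1 CPM after Erastin. Its Erastin libraries were below the control libraries by a small margin, and the log2 fold change of -0.26 (standard error 0.137, edgeR adjusted p = 0.145) did not pass the test. It was -0.44 without Erastin replicate 1 and -0.10 without Erastin replicate 2, and passed in neither case. The ratio of GINS2 to GINS3 counts, which partner in the same complex, was 1.04 and 1.14 in control and 0.282 and 0.288 in Erastin-treated cells.

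All 9 polymerase genes among the members were lower by adjusted p, and 5 were called. Further delta and epsilon subunits were kept in another list, described below. Of these, POLE4 was higher by adjusted p at 0.31 (edgeR adjusted p = 0.0435). POLE3 was lower at -0.35 (edgeR adjusted p = 0.0047), and POLD4 did not pass at 0.24 (edgeR adjusted p = 0.276). POLE2 (ENSG00000100479, chromosome 14, 49643555 to 49688422), the second subunit of polymerase epsilon, had 9.98 and 8.14 CPM in control and 2.17 and 2.32 CPM in Erastin-treated cells. It had the fewest reads of any member, 65 and 73 counts after Erastin, and hence the widest error. The fitted log2 fold change was -2.01 (standard error 0.219, edgeR adjusted p = 1.438e-05). POLE, the catalytic subunit that copies the leading strand, had a log2 fold change of -1.54.

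POLD2 (ENSG00000106628, chromosome 7, 44114681 to 44124358), an accessory subunit of polymerase delta, had 160 and 148 CPM in control and 97.0 and 92.3 CPM after Erastin. The groups did not overlap, and the log2 fold change was -0.70 (standard error 0.0724, edgeR adjusted p = 9.139e-06), short of the fold threshold. POLD1, the catalytic subunit on the lagging strand, had a log2 fold change of -1.19, and POLD3 one of -0.86. In the complex that starts new strands, the log2 fold change was -1.24 for POLA1, -0.98 for POLA2, -1.26 for the primase subunit PRIM1 and -0.76 for PRIM2. The value of PRIM2 is uncertain, since its transcript shares sequence with others. Of its 31-base words, 44.8% also occur in transcripts of genes elsewhere in the genome, and 28.2% in the pseudogene PRIM2BP. After PRIM2 and ORC4, the highest shares among the members were 13.0% in RFC2, 12.3% in ORC6, 10.5% in RPA2 and 9.57% in FEN1.

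The clamp and its loader moved by unequal amounts. PCNA (ENSG00000132646, chromosome 20, 5114953 to 5126626), the ring that tethers polymerases, had 77.9 and 77.3 CPM in control and 54.0 and 56.4 CPM in Erastin-treated cells. The Erastin level was 71.2% of the control level, and the log2 fold change of -0.49 (standard error 0.0747, edgeR adjusted p = 2.030e-04) was lower by adjusted p and not called. RFC1, the large subunit of the loader, had a log2 fold change of -0.50 and was not called either. RFC3 (ENSG00000133119, chromosome 13, 33818049 to 33966558), a small subunit, had 42.8 and 48.2 CPM in control and 11.2 and 11.7 CPM after Erastin. Its log2 fold change was -1.99 (standard error 0.114, edgeR adjusted p = 6.54e-08), and the other small subunits RFC5, RFC4 and RFC2 were called lower at -1.36, -1.18 and -1.16.

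Among the genes that mature the lagging strand, FEN1 and LIG1 were called lower. FEN1 (ENSG00000168496, chromosome 11, 61792637 to 61797244), the nuclease that cuts displaced flaps, had 94.7 and 88.0 CPM in control and 29.5 and 29.4 CPM in Erastin-treated cells. This was a log2 fold change of -1.63 (standard error 0.0813, edgeR adjusted p = 2.1e-08). LIG1, the ligase that joins the fragments, had a log2 fold change of -1.10. DNA2 (ENSG00000138346, chromosome 10, 68414064 to 68472121), a nuclease for long flaps, had 20.5 and 19.5 CPM in control and 13.0 and 10.1 CPM after Erastin, a log2 fold change of -0.79 (standard error 0.146, edgeR adjusted p = 7.937e-04).

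RPA, the trimer that covers single-stranded DNA, had 1 called subunit. RPA3 (ENSG00000106399, chromosome 7, 7636518 to 7718607), the smallest subunit, had 52.4 and 51.6 CPM in control and 22.8 and 22.1 CPM in Erastin-treated cells. Its log2 fold change was -1.21 (standard error 0.0937, edgeR adjusted p = 8.227e-07). RPA2 (ENSG00000117748, chromosome 1, 27891524 to 27914746), the subunit that is phosphorylated in the response to damage, had 60.6 and 65.6 CPM in control and 64.7 and 58.1 CPM after Erastin. The groups overlapped and the log2 fold change was -0.04 (standard error 0.0849, edgeR adjusted p = 0.731). RPA1, the large DNA-binding subunit, had a log2 fold change of -0.95 (edgeR adjusted p = 1.583e-06).

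**Figure D2:**
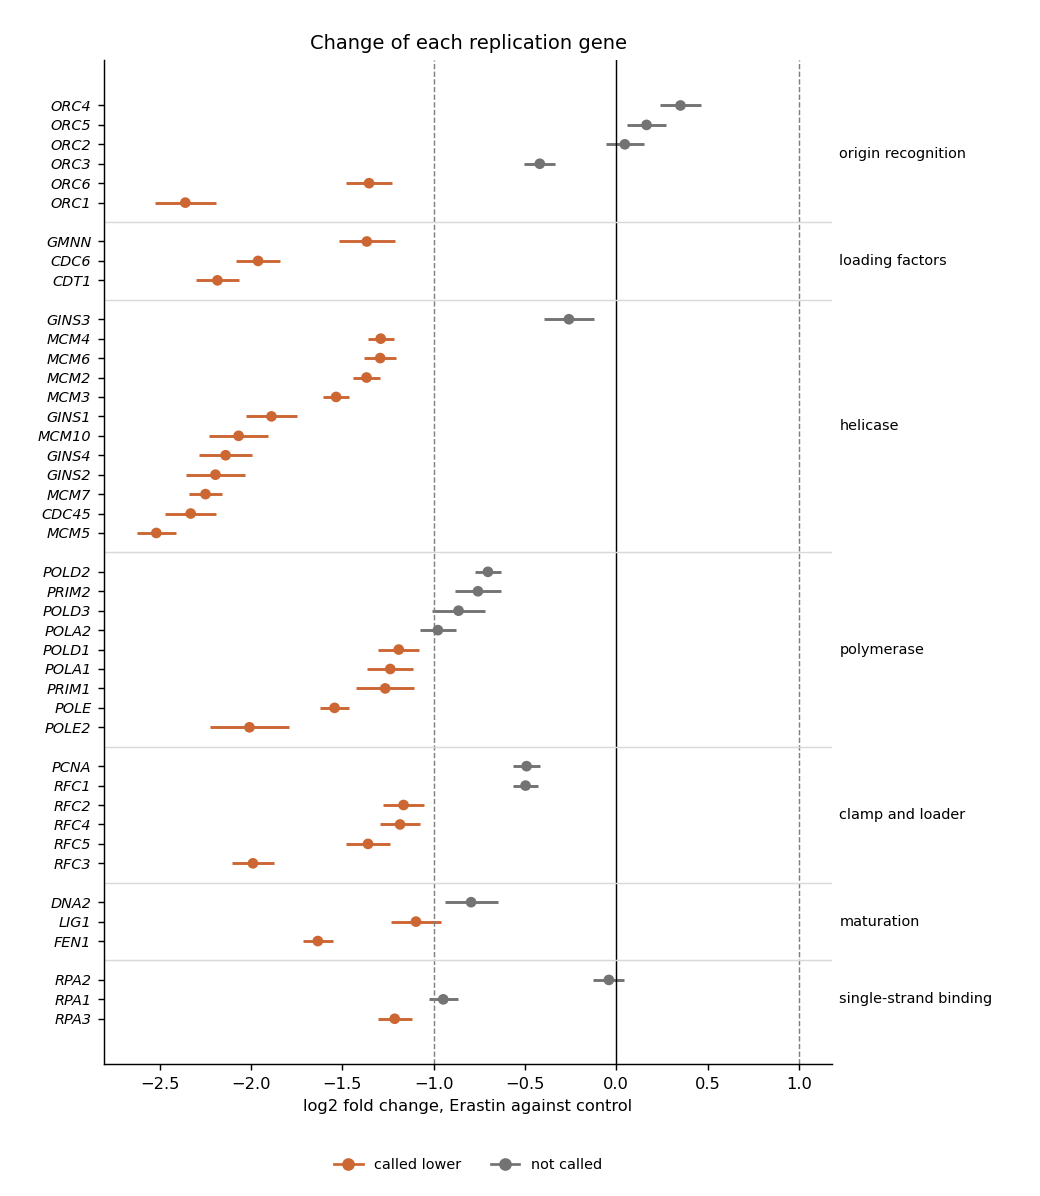
Log2 fold change (Erastin against control) of each of the 42 members, with bars of 1 standard error derived from the edgeR test, 2 libraries per group. Orange points were called lower, gray points were not called, and dashed lines mark the fold threshold in each direction. All 28 orange points lie left of -1, from -2.52 for MCM5 to -1.10 for LIG1, and ORC2, ORC4 and ORC5 lie right of 0.

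Transcripts of subunits of the same complex moved by unequal amounts. To compare them per length, counts were divided by exon length and scaled to the same total in every library (TPM), and each subunit was expressed on the log2 scale relative to the mean of its complex in the same library. With 2 libraries per group the exact permutation p of each such difference is at best 0.333, so these are given as levels and overlaps. The mean includes every subunit, so a fall in some raises the relative level of the others. A relative rise is therefore not a rise of the transcript itself. GINS3 and RFC1 rose relative to their complexes, while their own log2 fold changes were -0.26 and -0.50. The range of each complex was also taken, from its lowest to its highest log2 fold change. Its ends were picked from these same values, and the standard errors ignore that choice. A range also tends to grow with the number of subunits, from 2 in polymerase epsilon to 6 in ORC, so it does not rank the complexes. Between the highest and the lowest log2 fold change in a complex, the difference was 2.71 in ORC (standard error 0.203) and 1.94 in GINS (0.214). In RFC it was 1.49 (0.133), in MCM2 to MCM7 1.23 (0.127) and in RPA 1.17 (0.126). It was 0.51 in the primase complex (0.202), 0.49 in polymerase delta (0.134) and 0.47 in polymerase epsilon (0.232). The values for delta and epsilon cover only their subunits among the members. POLD4, POLE3 and POLE4 were kept in another list and left out, with log2 fold changes of 0.24, -0.35 and 0.31. The narrow ranges of delta and epsilon therefore do not describe the whole polymerases.

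In ORC, the level of ORC1 relative to the complex was -0.26 and -0.21 in control and -2.03 and -1.92 in Erastin-treated cells (log2 scale). The relative level of ORC4 moved the other way, from -1.22 and -1.17 to -0.22 and -0.30. ORC4 was thus the scarcest transcript of the complex in control, and ORC1 after Erastin. The most abundant ORC transcript, ORC3, exceeded the scarcest 5.98-fold and 5.44-fold in TPM in the control libraries and 11.8-fold and 10.6-fold in the Erastin libraries.

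In GINS, the relative level of GINS3 was -0.37 and -0.34 in control and 1.12 and 0.86 after Erastin, so it passed from the scarcest to the most abundant of the 4 transcripts. That order depends on length: with canonical transcript lengths GINS3 stood at 21.3 TPM in control, the most abundant of the 4 there too, and at 19.2 TPM after Erastin. In RFC, RFC3 went from 0.05 and 0.11 to -0.66 and -0.67, and RFC1 from 0.23 and 0.15 to 0.94 and 0.91. In RPA, RPA2 was already the most abundant in control at 0.56 and 0.62, and stood at 1.31 and 1.26 after Erastin. The spread of RPA transcripts widened from 1.85-fold and 2.03-fold to 4.54-fold and 4.21-fold in TPM. In contrast, the relative levels of POLA1, POLA2, POLD3, RFC2 and RFC4 overlapped between control and treated libraries.

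**Figure D3:**
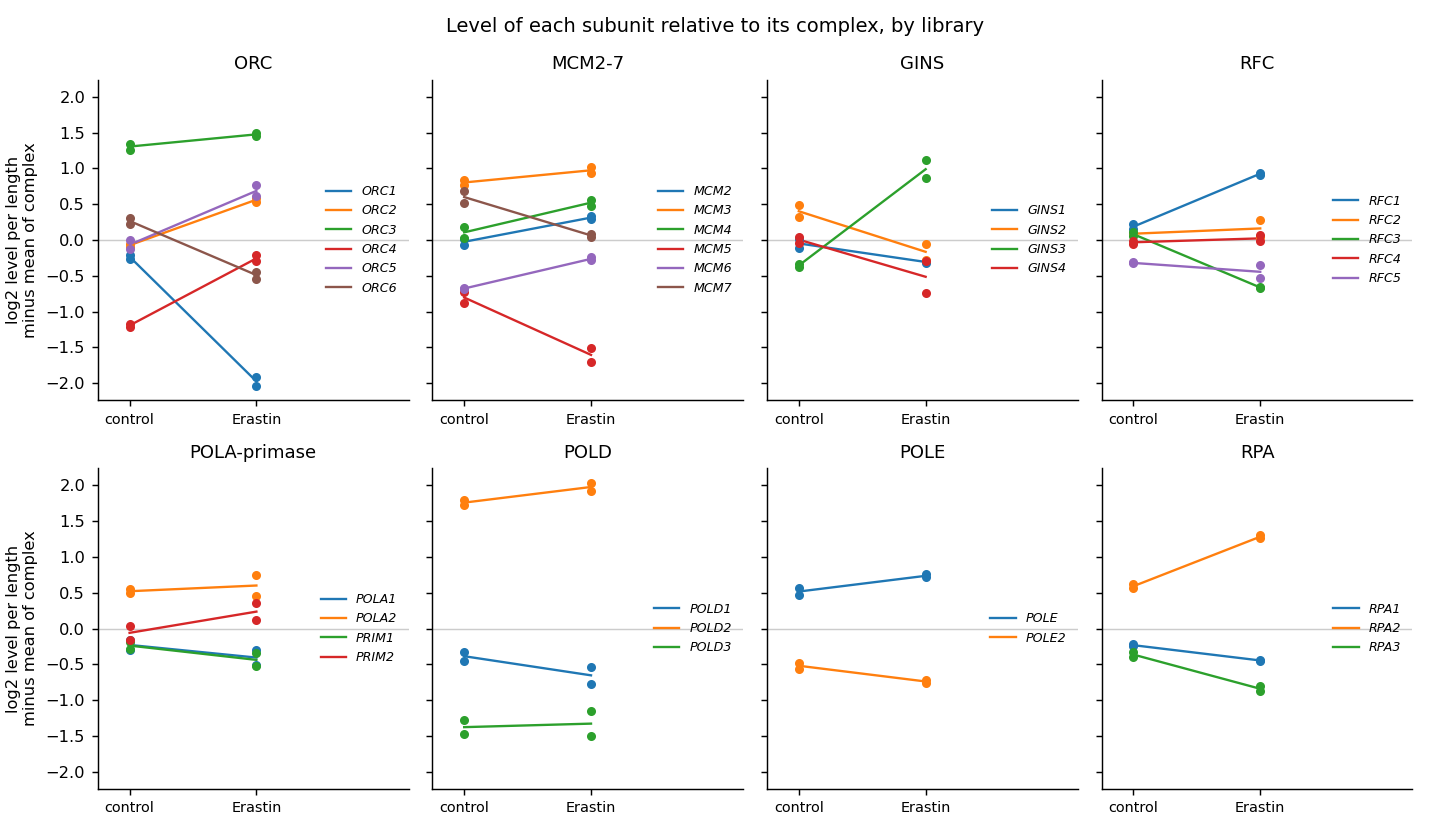
Level of each subunit per length (log2 of TPM plus 0.1) minus the mean of its complex in the same library, for 8 complexes, in 2 control and 2 Erastin libraries (points), with lines joining group means. Lines that diverge mark subunits that moved unequally, as ORC1 from -0.23 to -1.98 and GINS3 from -0.36 to 0.99. Polymerases delta and epsilon are shown only by their subunits among the members.

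Per length, PCNA had the highest level of the members in control at 182 ± 4.40 TPM (SD, n = 2), followed by MCM3 at 160 ± 1.83, POLD2 at 144 ± 4.16 and MCM7 at 139 ± 13.9 TPM. POLD2 and MCM7 did not differ beyond their spread. In Erastin-treated cells PCNA was still highest at 148 ± 2.61 TPM, but RPA2 at 120 ± 10.8 and POLD2 at 101 ± 4.92 TPM now followed, with MCM3 at 63.0 ± 4.09 and MCM7 at 33.4 ± 0.262 TPM. The scarcest in control were ORC4 at 9.48 ± 1.16, POLE2 at 10.6 ± 1.20, MCM10 at 10.7 ± 0.0319 and LIG1 at 10.9 ± 0.338 TPM, and ORC4 and POLE2 did not differ beyond their spread. After Erastin the scarcest were MCM10 at 2.90 ± 0.275 and POLE2 at 3.00 ± 0.0998 TPM. Exon length sets this order in part, since the table merges all isoforms of a gene. With canonical transcript lengths the highest in control were POLD2 at 219, MCM7 at 164 and PCNA at 139 TPM, and after Erastin POLD2 at 145, PCNA at 107 and RPA2 at 95.6 TPM. By canonical length the scarcest in control were MCM10 at 8.46, ORC4 at 8.54 and DNA2 at 10.7 TPM. After Erastin they were MCM10 at 2.18, ORC1 at 2.60 and POLE2 at 3.28 TPM. MCM5, whose merged exons span 7338 bases, stood at 73.7 TPM in control by canonical length and at 52.5 TPM by merged length.

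Neighbouring genes that share exon bases with a member were examined because the counts ignore strand. There were 22 such pairs, of which 14 involved a tested neighbour of 11 members. None of those neighbours was called in either direction by edgeR, and 5 were higher and 1 lower by adjusted p alone. Among tested neighbours the largest share was 8.94% of the exon bases of MCM7, with AP4M1, whose log2 fold change was -0.18 (edgeR adjusted p = 0.297) beside -2.25 for MCM7. EIF4A2, next to RFC4, had a log2 fold change of 0.68 beside -1.18, and TMEM258, next to FEN1, one of -0.04 beside -1.63.

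In the promoter windows described above, an E2F match was present in 18 of 35 members (51.4%), counting a member when any of its windows held one. Over all genes of the same table the share was 3.99%, and over the genes tested here 6.33%. Of the members called lower, 14 of 24 held a match, and of those not called, 4 of 11 did, namely ORC3, GINS3, PCNA and POLA2. Within the printed stretches, MCM6 held overlapping matches on both strands at -152 and -148 and again at -90 and -86 from the start, GMNN held 1 at -80, POLA1 1 at -137 and PCNA 1 at -59. Strongly lower members such as ORC1, CDC45, MCM10 and FEN1 held none in these windows. A match describes the sequence and not binding, and the lack of one says only that these letters are not in the window.

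NF-Y matches were found in 21 of 35 members (60.0%), against 39.7% of all genes of the table and 42.9% of the genes tested here. Of the members called lower 15 of 24 held one, and of those not called 6 of 11 did. The CHR motif (TTTGAA or TTCGAA on either strand) is an element of many late cell cycle promoters. By contrast it was found in 1 member, MCM6, or 2.86%, against 19.5% of all genes and 16.1% of the genes tested here. The map of matches by distance from the start shows most E2F matches in the last 100 bases before it or just after it.

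**Figure D4:**
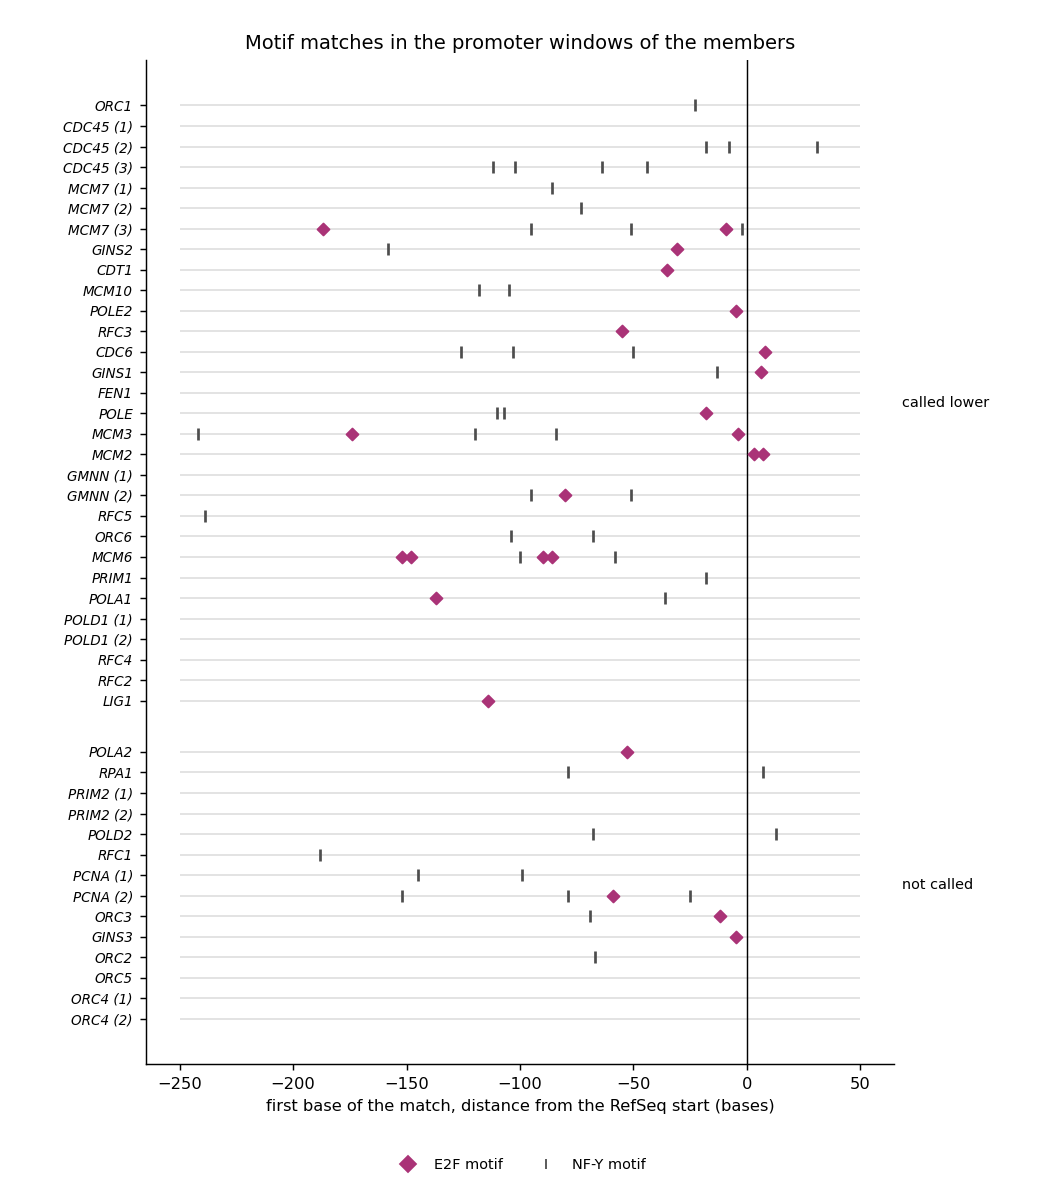
Positions of E2F (diamonds) and NF-Y (ticks) motif matches in 44 RefSeq promoter windows of 35 members, as distance in bases of the first matched base from the annotated start (0), with members called lower above and members not called below, and window numbers in parentheses. E2F matches occur in 14 of 24 members of the upper block and 4 of 11 of the lower block.

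Other genes of the replication pathway were described from 7 lists of 59 genes, of which 58 were tested and ATRIP was not. Of these, 19 were called lower and 1 higher, beside 9.34% and 6.24% of all tested genes, with a median log2 fold change of -0.57, closer to 0 than the members' -1.28. Most of the genes called lower were in 3 lists. In origin firing, 7 of 8 genes were called lower, from RECQL4, a helicase-family protein needed to assemble the active helicase, at -1.96 (1387 and 1262 counts in control, 370 and 304 after Erastin) to CDC7, the kinase that phosphorylates the MCM ring, at -1.05 (587 and 691 against 295 and 318). Among other clamp factors, 4 of 5 were called lower, from the PCNA-binding protein PCLAF at -2.41 (450 and 564 against 96 and 93 counts) to DSCC1, of an alternative clamp loader, at -1.53 (562 and 672 against 207 and 217). In nucleosome assembly at forks, 4 of 7 were called lower, from the histone chaperone ASF1B at -2.10 (2187 and 1994 against 416 and 560 counts) to NASP at -1.66 (3419 and 3751 against 1115 and 1135).

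In each of the other lists 1 gene was called lower. In the 3 lists of 10 or more genes that is near the 9.34% of all tested genes. The counts of calls thus say nothing particular of those lists. In licensing control it was DTL of 10, the adaptor that marks CDT1 for destruction, with 1330 and 1334 counts in control, 397 and 438 after Erastin and a log2 fold change of -1.67 (edgeR adjusted p = 1.553e-07). Among accessory and bypass polymerases it was RAD18 of 13, a ligase that modifies PCNA, at -1.32 (1662 and 1767 against 603 and 761 counts, edgeR adjusted p = 1.242e-06). In RNA primer removal it was RNASEH2A of 4, the catalytic subunit of RNase H2, at -1.60 (2652 and 2368 against 867 and 784 counts, edgeR adjusted p = 1.474e-07). In fork protection and checkpoint, CLSPN of 11 tested genes, an adaptor of the checkpoint kinase CHEK1, was called lower at -1.43 (661 and 704 against 216 and 290 counts, edgeR adjusted p = 9.867e-06). HUS1, a subunit of the checkpoint clamp, was the gene called higher. It had 781 and 818 counts in control and 1607 and 1779 in Erastin-treated cells. Its log2 fold change was 1.09 (standard error 0.0915, edgeR adjusted p = 1.659e-06). By adjusted p alone, 7 of 11 tested genes of fork protection and checkpoint were lower and 1 was higher. The counts were 6 of 13 lower and 1 higher for accessory and bypass polymerases. For licensing control they were 5 of 10 lower and 2 higher. Of all tested genes, 23.7% were lower and 23.2% higher by adjusted p.

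**Figure D5:**
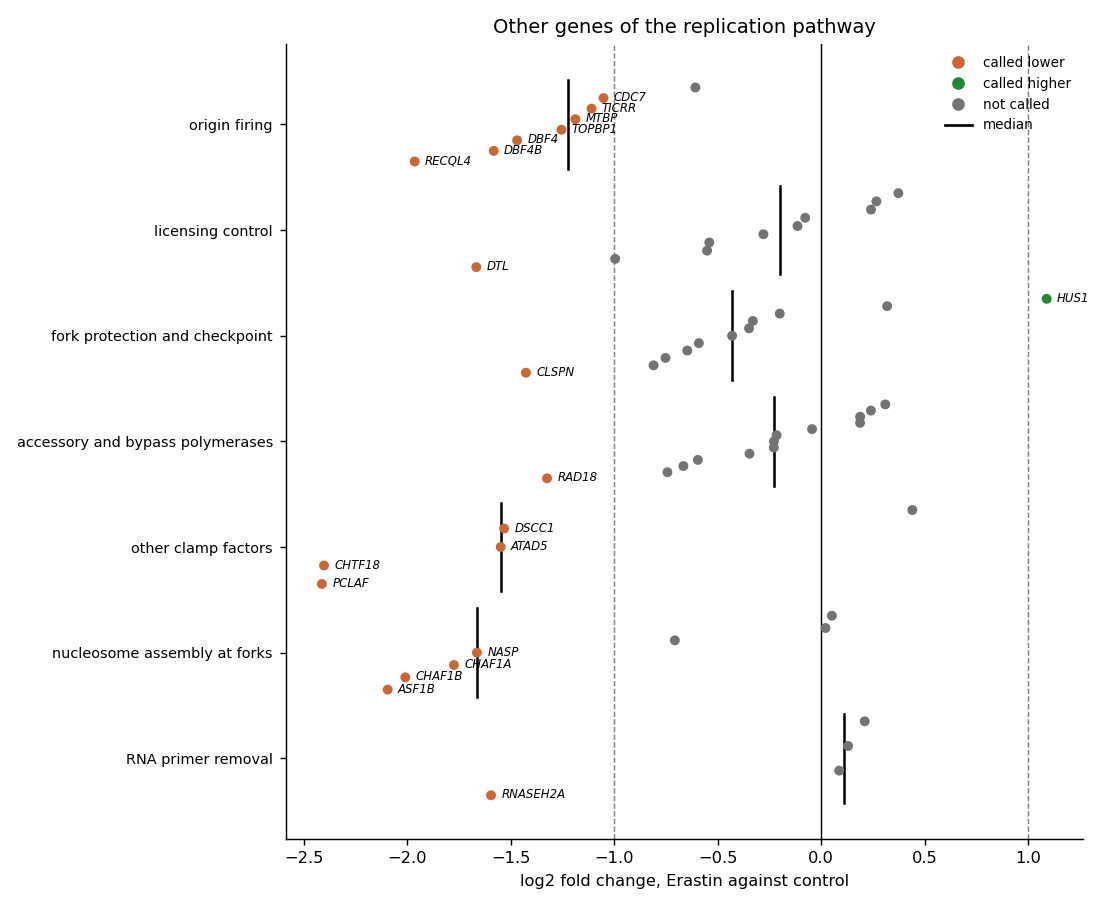
Log2 fold change (Erastin against control, 2 libraries each) of 58 other replication genes in 7 lists, with called genes named, gray points not called, vertical bars at list medians and dashed lines at the fold threshold. Medians lie at -1.22 for origin firing, -1.55 for other clamp factors and -1.66 for nucleosome assembly, and between -0.43 and 0.11 for the other 4 lists.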

How the data were processed

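Total RNA was sequenced in 4 libraries of U87MG cells, 2 of control cells and 2 of cells given Erastin at 10 μM for 72 h. Raw read counts per gene were deposited. Per the file header, the table was written by featureCounts 2.0.3 on genes of Ensembl release 90 (GRCh38), unstranded, whereas the submitters' processing notes name featureCounts 2.0.4 after HISAT2 2.1.0 and the methods of the study name htseq-count. The deposited values were checked for decimals, since 1 column was entered as estimated counts (expected counts), and 0 were not whole, so rounding changed none. The table gave 57532 of 58302 genes a symbol.

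The test was that of edgeR 4.0.16 under R 4.3.3 (filterByExpr with a minimum count of 10, TMM, quasi-likelihood test, Benjamini-Hochberg adjustment over 16751 genes; prior degrees of freedom 9.475, biological coefficient of variation 10.3%). Totals of 29412656 to 31513519 counts limit precision by counting error, and reads without molecular identifiers are not independent molecules. Standard errors were derived from that test, as the size of the log2 fold change divided by the square root of its F statistic. Those of differences between genes combined the errors of both genes as if independent. TPM used the exon lengths of the table and an offset of 0.1 on the log2 scale. Overlaps and words of 31 bases came from the table and GENCODE 44, promoters from RefSeq.

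The members and lists were chosen with earlier results of these data known. All 42 members were named with their log2 fold changes. Values by library and full statistics were given for the lowest and highest log2 fold change of each group and for members called higher or overlapping. Of each other list, the lowest and highest called gene were named, with counts by library and the log2 fold change. Alternatives were DESeq2 1.42.0, RLE factors, library totals, other filters, glmTreat, adjusted p alone, pairs of reads (counts divided by 2), a replicate block, each library left out, another offset (1), a shorter promoter window and, chosen after seeing the data, canonical transcript lengths. ChIP-seq and HiChIP samples of the series were not analysed here.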

Additional observations from a re-analysis of the deposited data

How the results depend on the processing

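All 28 calls of members remained under RLE factors, library totals, DESeq2, no filter, at least 10 counts in every library, pairs of reads and each library left out. glmTreat, which tests against the fold threshold itself, called 20 members lower, and 748 genes lower and 377 higher of all tested. Adjusted p alone gave 3977 lower and 3892 higher, with 37 members lower and 1 higher. Without Erastin replicate 1, POLA2 (-1.10) and RPA1 (-1.02) were called lower too, and without Erastin replicate 2 POLD3 (-1.07) was. Members near 0 changed sign: RPA2 was at 0.0087 under library totals and ranged from -0.1215 (without Erastin replicate 1) to 0.036 (without Erastin replicate 2) with each library left out, with 0.0102 without control replicate 2, and ORC2 ranged from -0.0403 (without control replicate 1) to 0.1287 (without control replicate 2), with -0.0213 without Erastin replicate 1. The cause was not tested.

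The median of the members lay between -1.31 and -1.25 with each library left out. Replicate numbers are shared by the groups, but no source says that they pair cultures, and deviations of same-numbered libraries correlated at 0.0293. With a replicate block 1568 genes were called lower and 1039 higher, and 28 members were called lower. The share of called-lower members with an E2F match was 41.7% in the 250 bases before the start, in place of 58.3%. Under an offset of 1, the change in relative level was -1.57 for ORC1, in place of -1.74. For ORC4 it was 0.86, in place of 0.94. The changes of ORC2, POLE and POLE2 were smaller in size too, and no subunit changed direction. With 2 libraries per group, members near the threshold cannot be placed on either side of it firmly.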
